A study of Mus with 30 samples.

Results

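Prdx2 and Trp53, the genes of peroxiredoxin 2 and p53, were followed in the hearts of Ang II-infused mice through 5 Ensembl transcript identifiers out of the 36503 identifiers of the series. ENSMUST00000005292, ENSMUST00000109733 and ENSMUST00000109734 stood for Prdx2, and ENSMUST00000108657 and ENSMUST00000108658 for Trp53. The identifiers were chosen by name, as the genes of the pathway the paper proposes, with earlier results of these data known. All 5 were listed in all 30 tables, 1 table per mouse. The deposited tables do not pair identifiers with gene names, so the assignment of these identifiers to the genes came with the list and was not checked against a table.

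The hearts came from male C57BL/6 mice that were 8 weeks old when procured, before the infusion, with 5 mice in each of 6 groups. The paper states 6 mice per group for RNA sequencing, and the series holds 5 per group. Gastrodin mice received Ang II at 500 ng/kg/min by a 28-day infusion, with 5 mg/kg/day of gastrodin by the intragastric route (Ang II + gastrodin). The Ang II + ethoxysanguinarine and Ang II + baicalin groups had the same infusion and 5 mg/kg/day of either compound, and the Ang II + valsartan group received it with valsartan at 10.4 mg/kg/day. The Ang II group received the infusion with saline, and the Control group received saline for both. All 6 groups share strain and genotype, and no group carries a modified allele. Sequencing used the left portion of each heart, so the values average over cardiomyocytes and all other cells of the tissue. Values are read here as FPKM, a level scaled for transcript length and library size, although no source names the unit. The labelled tissue was not checked against marker genes, because none of the 36503 identifiers matched the reference table by name.

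Peroxiredoxin 2 is an enzyme of the cytosol, abundant in red blood cells, that reduces hydrogen peroxide through a reactive cysteine and is recycled by thioredoxin. The p53 protein is a transcription factor that responds to DNA damage and other stress, halts the cell cycle and can start apoptosis through genes such as Bax. The amount of p53 is set largely by how fast Mdm2 marks it for degradation, so the level of its transcript and that of its protein can differ. The study joins both in 1 pathway of apoptosis in the hypertensive heart and proposes that gastrodin inhibits it. It reports Prdx2 among the transcripts lowered by gastrodin in its RNA sequencing. It also reports both proteins as raised by Ang II and lowered by gastrodin, in hearts and in H9c2 cells. The values below are RNA levels, and protein was not measured in them.

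In the RefSeq annotation of assembly GRCm38.p6, the build called mm10 in the submitters' processing notes, Prdx2 lies at chr8:84969622-84974811 and Trp53 at chr11:69580348-69591873. No other gene of that annotation overlaps either one. Rnaseh2a lies 23 bases below Prdx2 and Wrap53 lies 97 bases below Trp53, and no source names a step that keeps the strand of the reads. RefSeq lists 2 transcripts of Prdx2 and 6 of Trp53, of which 4 are predictions. The 2 identifiers followed for Trp53 may therefore not hold the whole output of the gene, and a sum over them is called the summed level of these transcripts.

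Library totals ran between 562189 and 654188 FPKM over the 30 mice. The correlation of log2(FPKM + 1) between libraries lay between 0.783 and 0.844 over the transcripts listed in all tables. No read counts could be obtained from the values, so the depth is unknown and the precision rests on the spread between mice.

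Prdx2 was well expressed in every heart, whereas the Trp53 transcripts were low and listed at 0 in many. ENSMUST00000005292 was the main Prdx2 transcript, with a mean of 31.4 FPKM over the 30 mice, above 96.3% of the 28298 transcripts listed in all tables. ENSMUST00000109734 had a mean of 14.1 FPKM and ENSMUST00000109733 a mean of 10.03 FPKM. ENSMUST00000005292 was the highest of these 3 in all 30 mice, and ENSMUST00000109734 exceeded ENSMUST00000109733 in 25. Trp53 ENSMUST00000108657 had a median of 0.118 FPKM and reached at most 6.11 FPKM. ENSMUST00000108658 had a median of 0 and reached at most 3.07 FPKM.

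Between gastrodin-treated and Ang II hearts, no difference in the 3 Prdx2 transcripts was detected. The paper reports Prdx2 as lower under gastrodin in its RNA sequencing. It does not name the transcript behind that call, which may lie outside these 3, so the call itself was not retested. The summed Prdx2 level was 56.0, 61.4, 57.1, 60.1 and 55.1 FPKM in the Ang II + gastrodin mice. In the Ang II mice it was 68.8, 59.5, 60.5, 55.5 and 53.9 FPKM. The ranges overlapped, and the 5 gastrodin mice lay inside the range of the Ang II mice. The mean was 57.9 ± 2.70 FPKM in the Ang II + gastrodin group and 59.6 ± 5.81 FPKM in Ang II mice (SD, n = 5 each). The difference was -0.037 on the log2(sum + 1) scale (exact permutation test, two-sided, p = 0.651, adjusted p = 0.921 over 12 tests of sums). In the limma fit of the sum, the 95% interval of the difference was -0.21 to 0.13. This interval leaves out a 2-fold change in either direction. In whole tissue, fewer cells that express a gene and less RNA per cell cannot be told apart.

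Each of the 3 Prdx2 transcripts gave a like picture in this comparison. ENSMUST00000005292 was at 31.7, 35.4, 32.5, 32.5 and 25.7 FPKM in gastrodin mice, against 36.1, 37.2, 35.4, 31.1 and 31.0 FPKM in Ang II mice. Mouse 5112 of the gastrodin group was the lowest, and the other 4 lay within the Ang II range. The log2 fold change was -0.11 with a 95% interval of -0.33 to 0.10 (limma, standard error 0.097, adjusted p = 0.861). It was -0.044 without mouse 5112 and -0.031 after quantile normalization. For ENSMUST00000109734 it was 0.11 (-0.12 to 0.34, limma, adjusted p = 0.872), and for ENSMUST00000109733 it was 0.02 (-0.51 to 0.55, limma, adjusted p = 0.992). None of the 3 passed in limma at an adjusted or an unadjusted p under 0.05. None passed the study's thresholds of a 2-fold change with an unadjusted p under 0.05, and none had groups that did not overlap. The study applied these thresholds to calls from DESeq. Here and below they are applied to limma p-values, so the study's own calls were not rerun. Over all 18155 transcripts tested in that comparison, 0.022% passed the adjusted threshold, 6.21% the unadjusted one and 1.25% the study's thresholds, and 1.43% did not overlap between the groups.

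**Figure D1:**
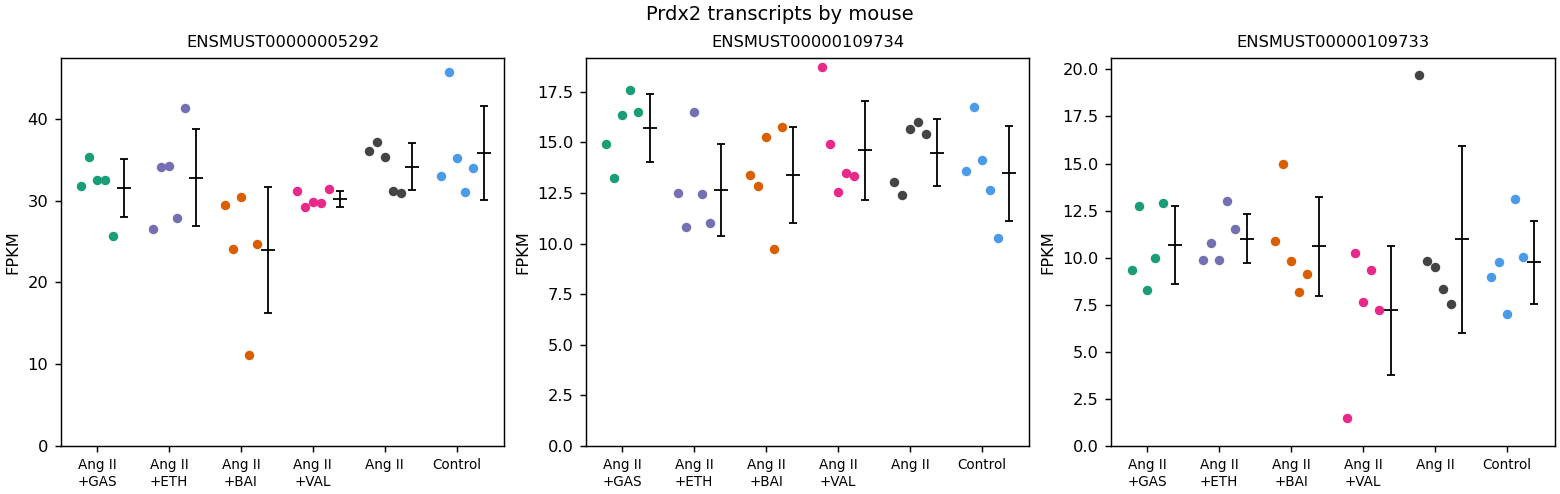
FPKM (vertical axis, linear from 0, a separate scale per panel) of the 3 Prdx2 transcripts in the 6 groups. A point stands for 1 mouse, and the mean with its SD is drawn beside the 5 points of a group. In the left panel all 5 Ang II + baicalin mice lie below the 5 Ang II mice, with mouse 5140 at 11.2 FPKM, and the other groups overlap the Ang II group.

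Ang II infusion by itself was also accompanied by no detected difference in Prdx2. The summed level of the 5 Control mice was 55.6, 72.2, 56.3, 56.8 and 54.3 FPKM. The highest value thus came from Control mouse 5155, with the other Control mice inside the Ang II range. Ang II mice had a mean of 59.6 ± 5.81 FPKM and Control mice one of 59.0 ± 7.44 FPKM (SD, n = 5 each), a difference of 0.02 on the log2 scale (exact permutation test, p = 0.810, adjusted p = 0.921). The 95% interval from limma was -0.21 to 0.25. The sign turned to -0.014 with libraries scaled to one total and to -0.012 after quantile normalization, and the value was -0.035 without Ang II mouse 5143 and 0.091 without Control mouse 5155. ENSMUST00000005292 had a log2 fold change of -0.06, ENSMUST00000109734 of 0.11 and ENSMUST00000109733 of 0.10 (limma, adjusted p between 0.842 and 0.928). None of the 3 passed an unadjusted p under 0.05 (limma), against 9.13% of the 18354 transcripts tested. Of all these, 0.0381% passed the adjusted threshold and 1.72% the study's thresholds, and 2.26% did not overlap between the groups.

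Gastrodin-treated hearts also did not differ detectably from Control hearts. The difference of the summed Prdx2 level was -0.02 on the log2 scale (exact permutation test, p = 0.897, adjusted p = 0.921), with a 95% interval from limma of -0.22 to 0.18. Without Control mouse 5155 it was 0.054. The log2 fold changes were -0.17 for ENSMUST00000005292, 0.22 for ENSMUST00000109734 and 0.12 for ENSMUST00000109733, and none passed at an adjusted or unadjusted p under 0.05 (limma, adjusted p between 0.721 and 0.905). Without Control mouse 5155 the value was -0.081 for ENSMUST00000005292 and 0.29 for ENSMUST00000109734, which then had an unadjusted p of 0.0349 and an adjusted p of 0.639 (limma). Without gastrodin mouse 5112 it was -0.10 for ENSMUST00000005292, and without Control mouse 5153 it was 0.13 for ENSMUST00000109734. The value of ENSMUST00000109733 ran from 0.018 without Control mouse 5116 to 0.22 without Control mouse 5193. Of the 18484 transcripts tested, 0.0703% passed the adjusted threshold, 7.68% the unadjusted one and 1.35% the study's thresholds, and 1.96% did not overlap. All comparisons of a drug with Ang II, and that of Ang II with Control, share the same 5 Ang II mice, and both comparisons of gastrodin share the gastrodin mice.

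By group mean, summed Prdx2 was lowest in the baicalin and valsartan groups, although ethoxysanguinarine mouse 5141, at 49.0 FPKM, lay below every valsartan mouse. Under baicalin, a flavonoid glucuronide, the summed level was 53.7, 51.8, 55.5, 29.1 and 49.6 FPKM. Mouse 5140, at 29.1 FPKM, stood apart from the other 4 mice, and only the highest baicalin mouse lay above the lowest Ang II mouse. The mean was 47.9 ± 10.8 FPKM in the Ang II + baicalin group and 59.6 ± 5.81 FPKM in Ang II mice (SD, n = 5 each), a difference of -0.34 on the log2 scale (exact permutation test, p = 0.0238). After adjustment over the 12 tests of sums it did not pass (exact permutation test, adjusted p = 0.143). Without mouse 5140 the difference was -0.17 (exact permutation test, p = 0.0556). With libraries scaled to one total it was -0.29 (exact permutation test, p = 0.119), and after quantile normalization -0.23 (exact permutation test, p = 0.349).

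The lower values under baicalin lay mostly in the main transcript. ENSMUST00000005292 was at 29.5, 24.0, 30.5, 11.2 and 24.7 FPKM in baicalin mice, against 36.1, 37.2, 35.4, 31.1 and 31.0 FPKM in Ang II mice. The groups did not overlap, with or without mouse 5140. The log2 fold change was -0.56 (95% interval -1.10 to -0.03, limma, standard error 0.24, unadjusted p = 0.0393), and it did not pass after adjustment over 18140 transcripts (limma, adjusted p = 0.473). Without mouse 5140 it was -0.32 (limma, adjusted p = 0.314). It was the only one of the 3 Prdx2 transcripts with an unadjusted p under 0.05 and the only one whose groups did not overlap. Over all transcripts tested between these groups, 9.75% had an unadjusted p under 0.05, 2.86% did not overlap, 1.76% passed the study's thresholds and 0.0165% the adjusted threshold (limma). Lower levels under baicalin were the more common among them. Of those with an unadjusted p under 0.05, 1221 were lower and 548 higher (limma). Of those that did not overlap, 353 were lower and 165 higher. ENSMUST00000109734 changed by -0.12 and ENSMUST00000109733 by 0.00 on the log2 scale in the same fit. Mouse 5140 had the lowest baicalin value of these as well, 9.75 FPKM of ENSMUST00000109734 and 8.16 FPKM of ENSMUST00000109733. Without mouse 5140 they changed by -0.02 and 0.08. In a fit of all 6 groups the adjusted p of ENSMUST00000005292 was 0.162 (limma), and over the other alternatives for the whole table, single mice left out included, it lay between 0.314 and 0.651. The unadjusted p in limma was above 0.05 after quantile normalization (0.118) and without any 1 of the 5 Ang II mice or baicalin mouse 5154 or 5133 (0.0501 to 0.0746).

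Mouse 5140 was not an outlying library by its total, 619966 FPKM, or by its mean correlation of 0.821 with the other baicalin mice. The level of all transcripts with a mean of at least 10 FPKM in the baicalin group had a median ratio of 1.11 to the other 4 mice, whereas summed Prdx2 had a ratio of 0.552. Of these 3206 transcripts, 9.86% were as low or lower relative to the other mice. The part of this library in the baicalin values is given by the values without it.

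Under valsartan, a blocker of the Ang II type 1 receptor, the mice were close to each other and lay at the low end of the Ang II range or below it. The summed level was 51.4, 54.4, 50.005, 52.5 and 52.0 FPKM, so that only the highest valsartan mouse lay above the lowest Ang II mouse. The mean was 52.1 ± 1.60 FPKM in the Ang II + valsartan group and 59.6 ± 5.81 FPKM in Ang II mice (SD, n = 5 each), a difference of -0.19 on the log2 scale (exact permutation test, p = 0.0159, adjusted p = 0.143). The 95% interval from limma was -0.36 to -0.02. With libraries scaled to one total the difference was -0.17 (exact permutation test, p = 0.0556), and after quantile normalization -0.11 (exact permutation test, p = 0.238). With each mouse left out in turn the difference ran from -0.22 to -0.14. The unadjusted p then lay between 0.00794 and 0.0397, and the adjusted p was 0.0952 or more (exact permutation tests). The difference did not pass in any of these settings after adjustment. With a mouse left out it could not have passed. The smallest p the test allows, 0.00794, becomes an adjusted p of 0.0952 when no other sum is as low. The adjusted values in these settings therefore decide nothing.

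Among single transcripts under valsartan, ENSMUST00000005292 was at 31.2, 29.2, 29.8, 29.7 and 31.4 FPKM, against the 31.0 to 37.2 FPKM of the Ang II mice. Its log2 fold change was -0.17 (95% interval -0.34 to 0.00, limma, unadjusted p = 0.0522, adjusted p = 0.792). ENSMUST00000109733 was at 1.49 FPKM in valsartan mouse 5131 and between 7.23 and 10.3 FPKM in the other 4. Its log2 fold change of -0.64 (limma, adjusted p = 0.872) was -0.25 without this mouse and -0.42 without Ang II mouse 5143. ENSMUST00000109734 had a log2 fold change of 0.00 (limma, adjusted p = 0.998). None of the 3 passed at an unadjusted p under 0.05, against 6.23% of the 18196 transcripts tested (limma). ENSMUST00000005292 was close to that threshold, and its unadjusted p in limma ran between 0.0261 (without Ang II mouse 5156) and 0.359 (after quantile normalization) over the alternatives. It was under 0.05 with a pseudocount of 0.1, a filter at a mean of 5 FPKM, Ensembl transcripts alone, and without Ang II mouse 5161 or 5156. ENSMUST00000109733 had an unadjusted p of 0.0364 in the limma fit of all 6 groups. The adjusted p in limma was 0.645 or more for both transcripts in every alternative. Of all these, 0.022% passed the adjusted threshold and 1.38% the study's thresholds, and 1.33% did not overlap.

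Under ethoxysanguinarine, a compound derived from the alkaloid sanguinarine, no difference in Prdx2 from the Ang II group was detected. The summed level was 49.0, 55.7, 60.6, 53.3 and 63.9 FPKM, with 3 mice inside the Ang II range and 2 below it. The mean was 56.5 ± 5.90 FPKM in the Ang II + ethoxysanguinarine group and 59.6 ± 5.81 FPKM in Ang II mice (SD, n = 5 each), a difference of -0.08 on the log2 scale (exact permutation test, p = 0.421, adjusted p = 0.921). The 95% interval from limma was -0.29 to 0.13. The log2 fold changes of ENSMUST00000005292, ENSMUST00000109734 and ENSMUST00000109733 were -0.07, -0.19 and 0.08 (limma, adjusted p between 0.735 and 0.958). None of them passed at an unadjusted p under 0.05, against 8.29% of the 18242 transcripts tested (limma). Without Ang II mouse 5143 the log2 fold change of ENSMUST00000109733 was 0.29 (limma, unadjusted p = 0.0359, adjusted p = 0.609), and without ethoxysanguinarine mouse 5118 that of ENSMUST00000109734 was -0.28 (limma, unadjusted p = 0.0266, adjusted p = 0.609). Of all these, 0.132% passed the adjusted threshold and 1.87% the study's thresholds, and 2.18% did not overlap.

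**Figure D2:**
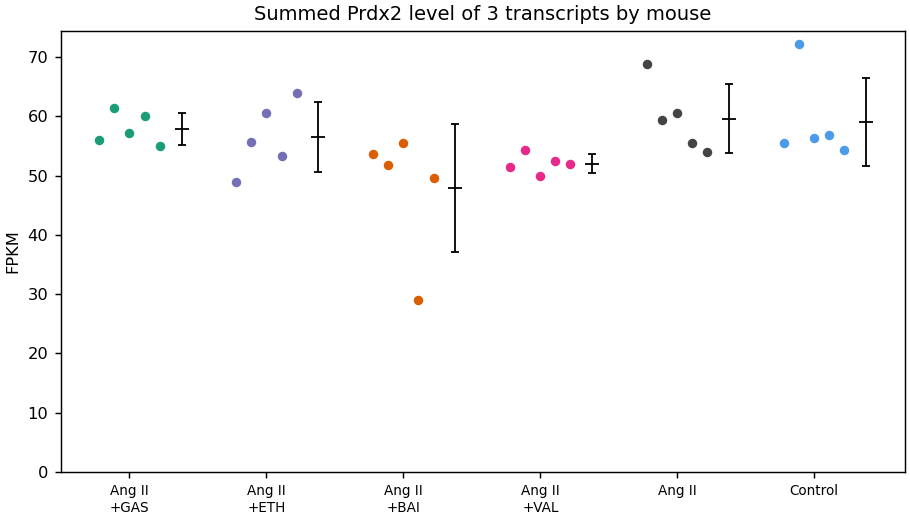
Summed FPKM of the 3 Prdx2 transcripts (vertical axis, linear from 0) in the 6 groups. A point stands for 1 mouse, and the mean of each group is drawn with its SD. The 5 gastrodin mice lie between 55.1 and 61.4 FPKM, inside the 53.9 to 68.8 FPKM of the Ang II mice, and baicalin mouse 5140 is the lowest at 29.1 FPKM.

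By group mean, the summed Prdx2 level ran in ascending order from baicalin through valsartan, ethoxysanguinarine and gastrodin to Control and Ang II. Each group overlapped its neighbour in this order, so the order of neighbours is not set beyond their spread. The spread between mice itself varied. The coefficient of variation was 4.66% under gastrodin, 10.4% under ethoxysanguinarine, 22.5% under baicalin and 3.07% under valsartan, against 9.74% in the Ang II group and 12.6% in the Control group. Over all mice, ENSMUST00000005292 had a coefficient of variation of 18.9%, close to the median of 19.0% of the 1603 transcripts within a factor of 2 of its level.

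**Figure D3:**
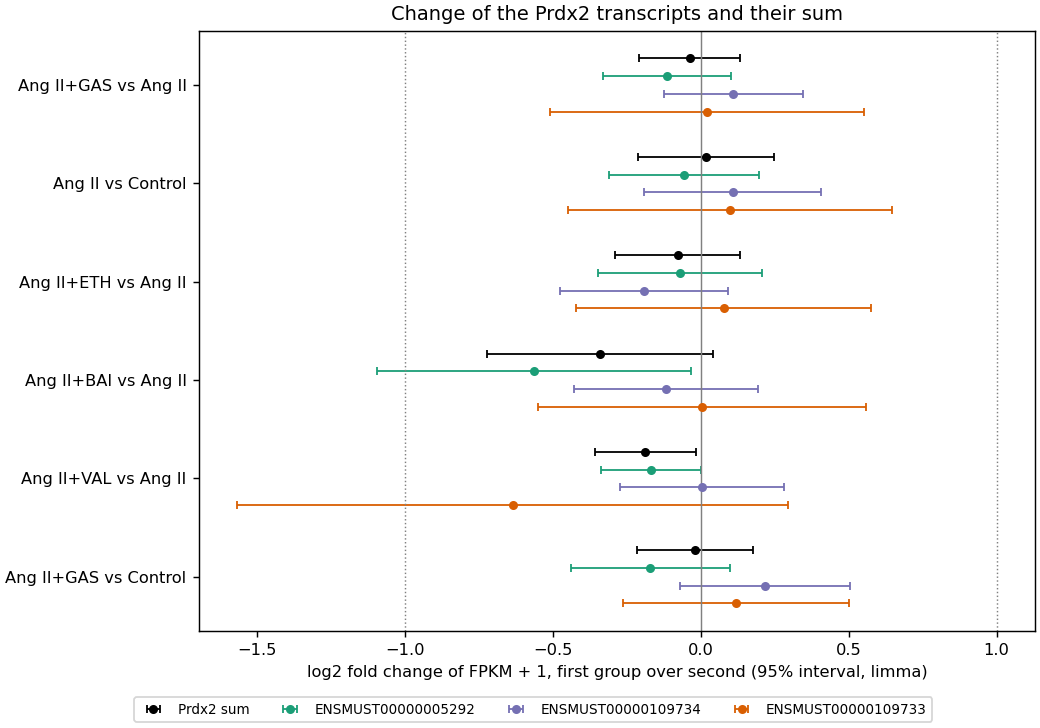
Log2 fold change of FPKM + 1 with its 95% interval from limma (horizontal axis) for the summed Prdx2 level and the 3 Prdx2 transcripts in 6 comparisons, first group over second. The dotted lines mark a 2-fold change, and 2 of the 18 transcript intervals reach them, that of ENSMUST00000005292 under baicalin at -1.10 and that of ENSMUST00000109733 under valsartan at -1.57.

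The division of Prdx2 among its transcripts does not depend on the scaling of a library. ENSMUST00000005292 held 56.2% of the summed level on average over the 30 mice, from 38.4% in baicalin mouse 5140 to 64.7% in an ethoxysanguinarine mouse. ENSMUST00000109734 held 25.6% and ENSMUST00000109733 18.2%. The share of ENSMUST00000005292 was 54.4 ± 4.51% in the Ang II + gastrodin group, against 57.4 ± 3.68% in the Ang II group (SD, n = 5 each). That difference, -3.02 percentage points, did not pass (exact permutation test, two-sided, p = 0.325), and it was -1.09 points without gastrodin mouse 5112 and -1.73 points without Ang II mouse 5128. Against the 60.5 ± 3.59% of the Control group (SD, n = 5), the gastrodin share was lower by 6.10 points (exact permutation test, p = 0.0476, adjusted p = 0.262 over 11 tests of shares).

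Under baicalin the share of ENSMUST00000005292 was 54.9%, 46.3%, 54.9%, 38.4% and 49.7%, against 52.4%, 62.6%, 58.5%, 56.1% and 57.5% in the Ang II mice. The lowest baicalin mouse was again 5140, and 2 baicalin mice lay within the Ang II range. The mean was 48.8 ± 6.87% in the Ang II + baicalin group and 57.4 ± 3.68% in the Ang II group (SD, n = 5 each), and the difference of -8.57 points did not pass after adjustment (exact permutation test, p = 0.0317, adjusted p = 0.262). Without mouse 5140 the difference was -5.96 points. Over single mice left out it ran from -10.1 to -5.96 points (exact permutation tests, p between 0.0238 and 0.0873). The differences under ethoxysanguinarine (0.37 points), under valsartan (0.74 points) and of Ang II against Control (-3.09 points) had p-values between 0.214 and 0.913 (exact permutation tests).

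**Figure D4:**
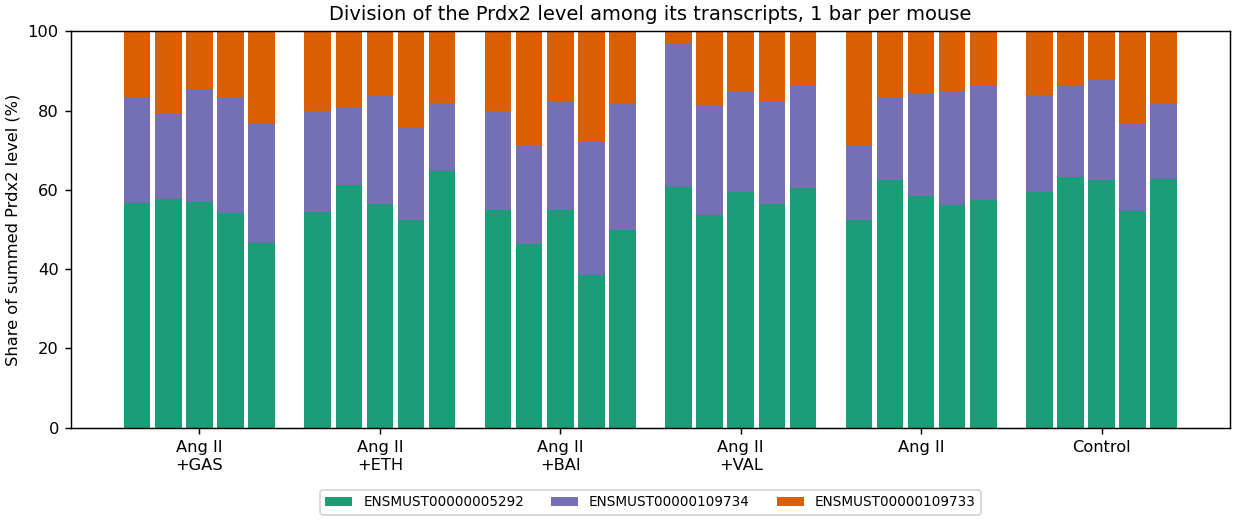
Percent of the summed Prdx2 level held by each of its 3 transcripts (vertical axis, 0 to 100%), 1 bar per mouse and 5 bars per group. ENSMUST00000005292 is the largest part in all 30 mice and smallest in baicalin mouse 5140 (38.4%), and ENSMUST00000109733 is nearly absent in valsartan mouse 5131 (2.90%).

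The Trp53 transcripts could not be read as a graded level. Both were listed at 0 in 15 of 30 mice, both were above 0 in 14, and in 1 mouse only ENSMUST00000108657 was above 0. A value of 0 in these tables need not mean absence, since of the 356 transcripts with a mean of 100 FPKM or more, 4.78% were at 0 in at least 1 mouse. Among the 12851 transcripts within a factor of 2 of the level of ENSMUST00000108657, 3.52% were at 0 in 15 or more mice, and the median was 0 mice. The 15 mice with values above 0 came from every group: 2 gastrodin, 1 ethoxysanguinarine, 4 baicalin, 3 valsartan, 3 Ang II and 2 Control mice.

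In the Ang II + gastrodin group, ENSMUST00000108657 was at 5.69 FPKM in mouse 5158 and at 3.33 FPKM in mouse 5112, and was listed at 0 in the other 3. In the Ang II group it was at 1.90, 1.92 and 0.683 FPKM in mice 5130, 5161 and 5156, and at 0 in the other 2. Both gastrodin values above 0 thus exceeded every Ang II value, while more gastrodin mice were at 0. ENSMUST00000108658 was at 0.886 and 0.109 FPKM in gastrodin mice 5158 and 5112, and at 0.144, 0.434 and 3.07 FPKM in Ang II mice 5130, 5161 and 5156. Mouse 5156 was the single mouse of the 15 in which ENSMUST00000108658 exceeded ENSMUST00000108657. Fewer than 5 of these 10 mice reached 1 FPKM in either transcript, so neither was tested with the other transcripts. Without that filter the log2 fold change was 0.20 for ENSMUST00000108657 (95% interval -1.21 to 1.61, limma, adjusted p = 0.962) and -0.34 for ENSMUST00000108658 (-1.20 to 0.53, limma, adjusted p = 0.884).

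The summed Trp53 level of gastrodin and Ang II mice did not differ detectably. It was 6.57 and 3.43 FPKM in the gastrodin mice above 0, against 2.04, 2.35 and 3.76 FPKM in the Ang II mice above 0. The difference of group means was -0.11 on the log2(sum + 1) scale (exact permutation test, p = 0.921, adjusted p = 0.921), and 0.37 FPKM on the linear scale, so the direction depended on the scale. The 95% interval from limma, -1.71 to 1.501, holds changes of more than 2-fold both ways. These transcripts therefore leave the size of any Trp53 change undetermined at this precision.

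In the Control group ENSMUST00000108657 was at 2.33 FPKM in mouse 5116 and at 3.99 FPKM in mouse 5153, and at 0 in the other 3. The summed Trp53 level of the Ang II mice differed from that of Control mice by 0.23 on the log2 scale (exact permutation test, p = 0.921). Under ethoxysanguinarine 1 mouse, 5123, was above 0 with 3.57 FPKM of ENSMUST00000108657, and the difference of the sum from the Ang II group was -0.68 (exact permutation test, p = 0.405). Under valsartan ENSMUST00000108657 was at 4.62, 3.95 and 3.83 FPKM in 3 mice and at 0 in 2, and the sum differed by 0.33 (exact permutation test, p = 0.571).

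The highest values of ENSMUST00000108657 were in baicalin hearts. ENSMUST00000108657 was at 3.98, 0.236, 6.01 and 6.11 FPKM in 4 baicalin mice and at 0 in mouse 5154. The groups overlapped, as the Ang II mice ran up to 1.92 FPKM. The log2 fold change was 0.89 (95% interval -0.55 to 2.32, limma, unadjusted p = 0.200, adjusted p = 0.702), and that of the summed level was 0.62 (exact permutation test, p = 0.468, adjusted p = 0.921). Under valsartan the log2 fold change of ENSMUST00000108657 was 0.65 (limma, adjusted p = 0.905). Baicalin and valsartan against Ang II were the only comparisons in which a Trp53 transcript reached the filter. It did so through the higher drug-group mice, so the filter favours a positive change. In each, it stayed tested in only 5 of 10 fits with 1 mouse left out. Without the filter, ENSMUST00000108657 changed against Ang II by 0.89 under baicalin and 0.65 under valsartan. It changed by 0.20 under gastrodin and -0.33 under ethoxysanguinarine (limma, adjusted p between 0.743 and 0.962).

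**Figure D5:**
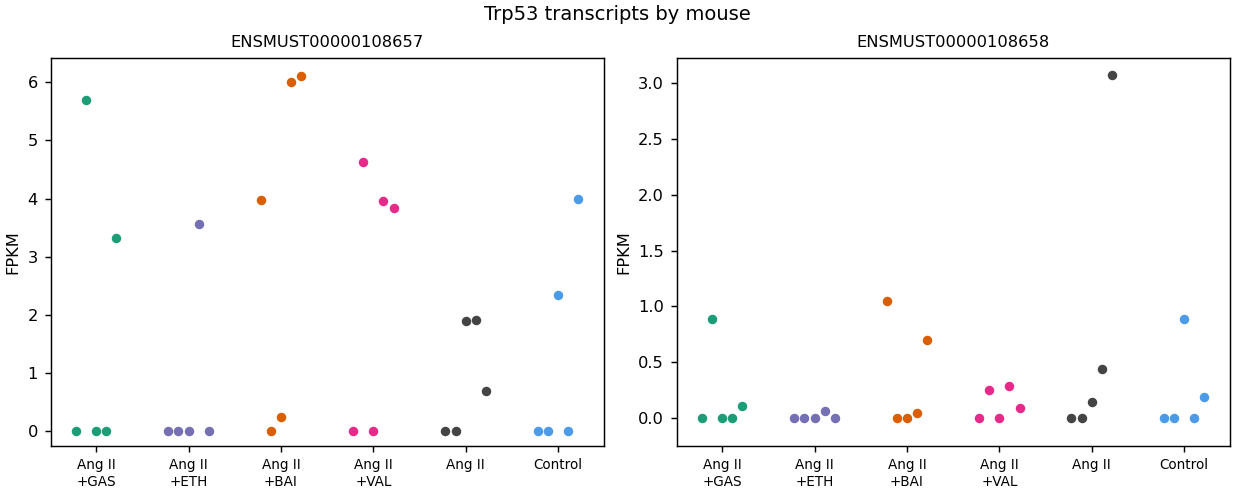
FPKM (vertical axis, linear, a separate scale per panel) of the 2 Trp53 transcripts in the 6 groups, with 1 point per mouse and no mean, since both transcripts are listed at 0 in 15 of 30 mice and a 0 need not mean absence. ENSMUST00000108657 is above 0 in 15 of 30 mice and at most 6.11 FPKM, and ENSMUST00000108658 has its highest value, 3.07 FPKM, in Ang II mouse 5156.

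In the 15 mice with Trp53 above 0, ENSMUST00000108657 held between 18.2% and 100% of the summed Trp53 level. In gastrodin mice 5158 and 5112 it held 86.5% and 96.8%, against 93.0%, 81.5% and 18.2% in Ang II mice 5130, 5161 and 5156. With 2 mice against 3 the smallest p the test allows is 0.1, and the difference had p = 0.600 (exact permutation test). No share of either gene passed in any comparison after adjustment over the 11 tests. A lone share at 0.00794, the smallest p of 5 against 5 mice, could not have passed either.

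Since the values of Trp53 fall into mice at 0 and mice above 0, its relation to Prdx2 was computed within the 15 mice above 0. Pearson's r between the summed levels on the log2 scale was -0.31 (permutation test with 100000 resamples, p = 0.149, adjusted p = 0.198 over 4 relations). Spearman's rho was -0.52 (permutation test, p = 0.0488, adjusted p = 0.171). Without mice 5140 and 5158, the farthest from the median Prdx2 level, r was -0.57 in 13 mice (permutation test, p = 0.0683), and after subtraction of the group means r was -0.41 (permutation test, p = 0.102). Neither coefficient passed after adjustment.

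The transcripts whose levels most resembled the summed Prdx2 level over the 30 mice, among 19467 compared, were ENSMUST00000003818 (r = 0.82) and ENSMUST00000018449 (r = 0.80). The likeness rested on baicalin mouse 5140, in which ENSMUST00000003818 was at 0.251 FPKM, against 8.53 to 16.7 FPKM in the other 29 mice. ENSMUST00000018449 was at 2.52 FPKM in that mouse, against 17.5 to 27.6 FPKM in the others. Without mouse 5140 the values of r were 0.29 and 0.18. For the summed Trp53 level the most alike were the merged models MERGE.5621.8 (r = 0.70, at 0 in 7 mice) and MERGE.1941.2 (r = 0.64, at 0 in 20 mice). Without mice 5133 and 5158, the farthest from the median, these were 0.68 and 0.58. These coefficients describe the same 30 libraries and were selected as the highest, so no test is attached to them.

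Over the 6 comparisons, 20 tests of the 5 transcripts were possible in limma, 18 of Prdx2 and 2 of Trp53. None of the 20 had an adjusted p under 0.05, 1 had an unadjusted p under 0.05 and none passed the study's thresholds (limma). Over all transcripts tested, 6.21% to 9.75% per comparison had an unadjusted p under 0.05. The study's thresholds were passed by 1.25% to 1.87% and the adjusted one by 0.0165% to 0.132%. With so few tests, the counts set these members apart from other transcripts in neither direction. Of the 18 intervals for Prdx2 transcripts, 16 lay inside a 2-fold change.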

How the data were processed

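Cardiac RNA from 30 mice was depleted of ribosomal RNA and sequenced by the authors. Each mouse has 1 table of transcript levels as the authors deposited it, taken to be in FPKM. The sources used here give neither the unit nor the aligner, quantifier or annotation. The submitters' processing notes name mm10 and limma. No counts could be obtained, so depth is unknown and no count-based test was used. Groups came from the labels, and no mouse of one group is tied to a mouse of another.

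Group differences of log2(FPKM + 1) came from limma 3.58.1, run in R 4.3.3 (mean-variance trend, two-sided, libraries of both groups) over transcripts listed in both groups and at 1 FPKM or more in at least 5 libraries, with Benjamini-Hochberg adjustment over all of them. Summed levels and shares were compared by exact permutation tests over the 252 assignments of 5 and 5 mice (fewer for Trp53 shares), where the smallest p is 0.00794, in Python 3.11.15. P-values measure only the spread between mice. The limma fit was checked on simulated data. Relations used permutation tests with 100000 resamples, and that of Prdx2 with Trp53, planned over 30 mice, was kept to the 15 with Trp53 above 0. Named were all 5 transcripts and, per gene, the 2 transcripts most correlated with its sum. The members and lists were chosen with earlier results of these data known. The redox, p53, apoptosis and cell type lists were not analysed here, since 0 of 36503 identifiers matched the reference table, and no sequence was used. Alternatives were another pseudocount, 2 other filters, quantile normalization, scaling to one total, limma without the trend, all 6 groups in one fit, Ensembl transcripts alone, the linear scale and each mouse left out.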

Additional observations from a re-analysis of the deposited data

Results flagged for a closer look

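Of 42 checks of a transcript or sum within a group of 5 mice, 10 found 1 mouse far from the other 4. Chance gives about 1 in 20, and the checks are not independent, since the sums hold the transcripts and 5 of the 10 are Trp53 transcripts with most mice at 0 or near it.

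For Prdx2, baicalin mouse 5140 had a summed level of 29.1 FPKM, against 49.6 to 55.5 FPKM in the other baicalin mice. Control mouse 5155 had a summed level of 72.2 FPKM, against 54.3 to 56.8 FPKM in the other Control mice, and 45.7 FPKM of ENSMUST00000005292, against 31.1 to 35.2 FPKM. Ang II mouse 5143 had 19.7 FPKM of ENSMUST00000109733, against 7.51 to 9.84 FPKM in the other Ang II mice.

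For Trp53, ethoxysanguinarine mouse 5123 had 3.57 FPKM of ENSMUST00000108657, 0.0616 FPKM of ENSMUST00000108658 and a sum of 3.63 FPKM, with the other 4 mice at 0. ENSMUST00000108658 was at 0.886 FPKM in gastrodin mouse 5158, against 0 to 0.109 FPKM in its group. It was at 3.07 FPKM in Ang II mouse 5156, against 0 to 0.434 FPKM, and at 0.884 FPKM in Control mouse 5116, against 0 to 0.191 FPKM.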

How the results depend on the processing

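No member passed an adjusted p under 0.05 in limma, and no sum or share did in the exact permutation tests, under any alternative run. For the sums and shares this was nearly fixed in advance. A lone sum or share at the smallest p, 0.00794, cannot pass after adjustment over 12 or 11 tests. Directions of small differences did turn. After quantile normalization the summed Prdx2 difference was 0.032 for gastrodin against Ang II, -0.012 for Ang II against Control and 0.015 for gastrodin against Control. With libraries scaled to one total it was -0.014 for Ang II against Control. The Trp53 sum was 0.37 FPKM higher in gastrodin than in Ang II mice on the linear scale. With each mouse left out in turn, the summed Prdx2 difference ran from -0.072 to 0.015 for gastrodin against Ang II, from -0.035 to 0.091 for Ang II against Control and from -0.047 to 0.054 for gastrodin against Control. The Trp53 sum ran from -0.58 to 0.18, from -0.052 to 0.60 and from -0.35 to 0.49 in these comparisons. ENSMUST00000109733 ran from -0.083 to 0.24 for gastrodin, from -0.026 to 0.29 for ethoxysanguinarine and from -0.12 to 0.22 for baicalin against Ang II, and from -0.12 to 0.20 for Ang II against Control. ENSMUST00000005292 ran from -0.10 to 0.033 for Ang II against Control, and ENSMUST00000109734 from -0.084 to 0.051 for valsartan. The share of the main Prdx2 transcript ran from -1.36 to 1.75 points for ethoxysanguinarine and from -0.50 to 2.03 points for valsartan, and that of Trp53 from -34.1 to 3.28 points for Ang II against Control. The cause of these turns was not tested. Taking an unlisted transcript as 0 gave no new value, since all 5 were listed in every table. No paired analysis was possible because the labels give the mice of different groups no shared numbers. A change well under 2-fold in Prdx2, and changes of over 2-fold in Trp53, are within the intervals. Of the 18 intervals of Prdx2 transcripts, 2 also reach a 2-fold change, that of ENSMUST00000005292 under baicalin and that of ENSMUST00000109733 under valsartan.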

Other observations

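Among the 3 Prdx2 transcripts themselves, levels did not move together firmly over the 30 mice. Pearson's r on the log2 scale was 0.05 between ENSMUST00000005292 and ENSMUST00000109733 (permutation test, p = 0.721, adjusted p = 0.721 over 4 relations), with Spearman's rho at 0.0078 (permutation test, p = 0.968). It was 0.29 between ENSMUST00000005292 and ENSMUST00000109734 (permutation test, p = 0.121, adjusted p = 0.198), with rho at 0.049 (permutation test, p = 0.798). That relation was -0.23 without mice 5140 and 5155, and 0.36 after subtraction of the group means (permutation test, p = 0.0490). Between ENSMUST00000109733 and ENSMUST00000109734 r was -0.37 (permutation test, p = 0.0410, adjusted p = 0.164), with rho at -0.32 (permutation test, p = 0.0853), and -0.41 after subtraction of the group means (permutation test, p = 0.0244). Without valsartan mouse 5131 and Ang II mouse 5143 it was -0.15. In valsartan mouse 5131 ENSMUST00000109733 was at 1.49 FPKM with ENSMUST00000109734 at 18.7 FPKM, and in Ang II mouse 5143 they were at 19.7 and 13.0 FPKM.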
